A study of Homo sapiens with 6 samples.

Results

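The 51 genes described here encode the ATR checkpoint, the enzymes that remodel and protect stalled replication forks, the Fanconi anemia pathway and homologous recombination. They were taken by symbol from a list, out of 60671 gene rows in the count tables. The list and its subsets were chosen with earlier results of these data known, so their counts are descriptions only. RNA was measured by sequencing in NCI-H69, an established line of small cell lung cancer. The groups were 3 libraries of cells given GNF5, an allosteric inhibitor of the ABL kinases, at 20 µM for 48 h, and 3 libraries of cells given its vehicle DMSO for 48 h. All cells were labelled wild type, and a single line limits what the values can stand for. The title of the series concerns conflicts of transcription with replication, and replication forks, when ABL kinases are inactive.

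When a replication fork stalls, single-stranded DNA coated by RPA recruits the kinase ATR through its partner ATRIP. TOPBP1 or ETAA1 then switches ATR on, and CLSPN carries the signal to the kinase CHEK1, which restrains the CDC25 phosphatases and so holds CDK1 inactive. Fork remodelling enzymes reverse the stalled fork, the BRCA and TONSL-MMS22L proteins protect it, and the Fanconi pathway unhooks crosslinked DNA by attaching ubiquitin to FANCD2 and FANCI. Many of these genes are transcribed mainly in cycling cells.

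Library totals ran from 46148701 to 60697602 counts. Levels below are counts per 1000000 counts (CPM), scaled with TMM factors, and a log2 fold change is GNF5 over DMSO with its standard error. "Rose", "fell" and "called" are used of genes with an adjusted p under 0.05 in edgeR's quasi-likelihood test over all genes, and the p measures only the spread between these libraries, since nothing in the labels says they came from separate cultures. In bulk RNA, fewer cells of a type or cell cycle phase and less RNA per cell cannot be told apart. The neuroendocrine markers INSM1, CHGA, SYP, NCAM1 and DLL3 were all present. INSM1, a neuroendocrine transcription factor, averaged 1464 ± 45.8 CPM in GNF5 libraries and 1403 ± 34.0 CPM in DMSO libraries, and DLL3, a Notch ligand, 86.7 ± 2.34 CPM in GNF5 libraries and 72.5 ± 5.23 CPM in DMSO libraries (SD, n = 3 each). Of other cell types, the leukocyte list of 5 genes summed to 3.18 to 4.05 CPM with GNF5 and 4.60 to 4.88 CPM with DMSO, with CD3E at 0 counts in every library. The lung epithelium list of 4 summed to 0.289 to 0.474 CPM and 0.677 to 0.797 CPM, with SFTPB at 0 counts, and the fibroblast list of 5 to 64.8 to 72.0 CPM and 120.2 to 125.9 CPM, most of it from COL1A2 (63.5 CPM with GNF5 and 119.2 CPM with DMSO), named after its value was seen.

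All 51 genes passed the expression filter, and more fell than rose with GNF5. Of the 51, 31 fell (60.8%) and 14 rose (27.5%), against 30.7% of all 20734 tested genes that fell and 31.0% that rose. Calls in either direction came to 88.2% of the members and 61.6% of all tested genes. Most members are well expressed, and among the 9291 genes at a mean log2 CPM of at least 4, a level chosen after the values were seen, 78.1% were called, 37.6% lower and 40.4% higher, while of the 43 members at that level 38 were called, 26 lower and 12 higher. The changes were modest. The median absolute log2 fold change was 0.35 in the members and 0.34 over all tested genes, or 0.33 and 0.25 among genes at that mean log2 CPM. Of the 51, CDC25C alone fell at least 2-fold (6.69% of all genes did), while 0 members rose that far (4.95% of all genes did).

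The subsets differed in their counts, although no test compares them here. The Fanconi subset, as sorted here, was the most one-sided, with 11 of 13 lower and 2 higher (median log2 fold change -0.44). That count depends on the sorting. UHRF1 was placed in this subset, while BRCA1, BRCA2, PALB2, SLX4 and XRCC2 were placed under recombination. Of these, BRCA2 and SLX4 fell, PALB2 rose, and BRCA1 and XRCC2 were not called. In the checkpoint subset 11 of 19 fell and 6 rose (median -0.17), and in recombination 7 of 14 fell and 4 rose (median -0.19). The 5 fork remodelling and protection genes had 2 higher and 2 lower (median -0.03). The median of all tested genes was 0.0057. Summed over its genes, the Fanconi subset had 716.2 to 724.0 CPM in GNF5 libraries against 971.5 to 991.5 CPM in DMSO libraries, so the groups lay far apart. The recombination sum was 558.1 to 586.2 CPM with GNF5 and 583.4 to 599.7 CPM with DMSO, where the groups overlapped.

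**Figure D1:**
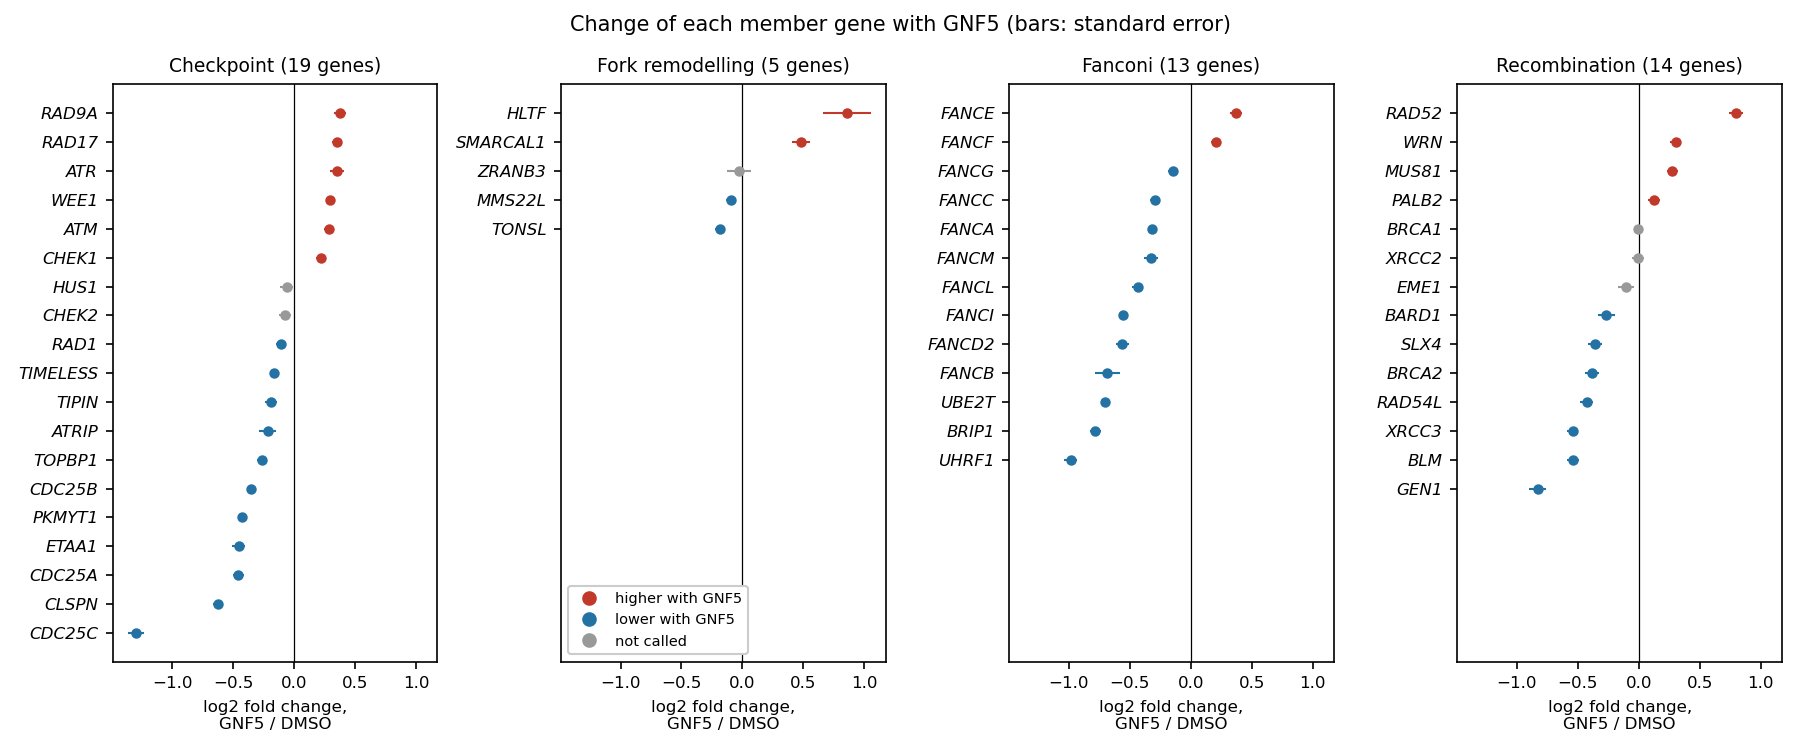
Log2 fold change of each of the 51 genes (horizontal axis, GNF5 over DMSO, bars are the standard error), in 4 panels by subset and ordered from highest to lowest. Red genes rose, blue fell and grey were not called, and 11 of the 13 Fanconi genes are blue while CDC25C, at -1.30, is the lowest of all.

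Nearly all listed genes of cell division that are not among the 51 fell with GNF5. All 16 genes of a G2/M list fell (median log2 fold change -1.13), and their summed level was 1131 to 1135 CPM in GNF5 libraries against 2411 to 2504 CPM in DMSO libraries. KIF20A, a mitotic kinesin, had a log2 fold change of -1.61, and CCNB1, the mitotic cyclin, of -1.31. Of 17 G1/S genes 16 fell (median -0.43), with a sum of 2959 to 3049 CPM with GNF5 and 4000 to 4116 CPM with DMSO. RRM2, of ribonucleotide reductase, fell by 1.63 on the log2 scale, and CDT1, a licensing factor named because it was the remaining gene, was not called (0.09 ± 0.041). The part of cell cycle composition in the members' changes was not tested. The median of the Fanconi genes (-0.44) was close to that of the G1/S genes, and the medians of the other 3 subsets were nearer to 0.

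**Figure D2:**
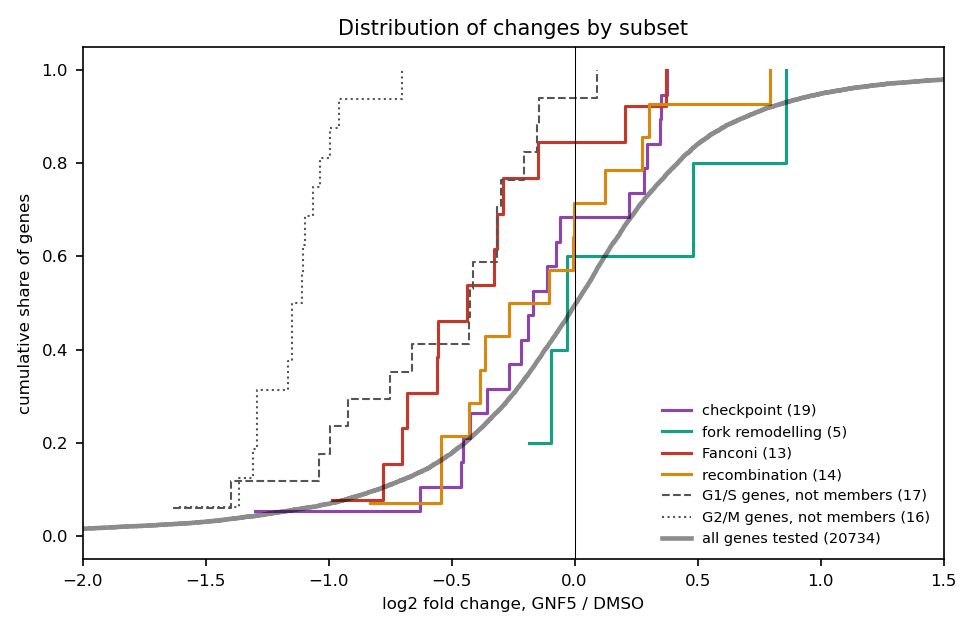
Cumulative share of genes (vertical axis) by log2 fold change, GNF5 over DMSO (horizontal axis), for the 4 subsets, for G1/S and G2/M genes outside them, and for all genes tested (thick grey, -2 to 1.5 shown). The Fanconi and G1/S curves cross the middle at about the same place (medians -0.44 and -0.43), and below it the G1/S curve reaches further left, while the G2/M curve lies left of every subset at its median (-1.13).

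Promoter stretches of 6 members are shown because they carry letters of cell cycle control elements. They are genes that fell and XRCC2, which was not called. No gene that rose is shown, although HLTF, which rose, holds letters of every kind searched. Each gives 130 bases of RefSeq promoter sequence on GRCh38.p14, from 100 before a transcript start to 30 after it, read on the gene's strand, and capitals mark every match to the E2F, cell cycle homology region (CHR) and CCAAT letters spelled out after the sequences. CDC25C (chr5:138331775-138331904, minus strand) holds the CHR letters TTTGAA and a CCAAT box read on the other strand as ATTGG. The E2F letters stand in CDC25A (chr3:48188388-48188517, minus), CLSPN (chr1:35769949-35770078, minus), FANCD2 (chr3:10026337-10026466, plus), UHRF1 (chr19:4909401-4909530, plus) and XRCC2 (chr7:152676112-152676241, minus), and CDC25A, CLSPN and UHRF1 also hold CCAAT on one strand or the other.
CDC25C: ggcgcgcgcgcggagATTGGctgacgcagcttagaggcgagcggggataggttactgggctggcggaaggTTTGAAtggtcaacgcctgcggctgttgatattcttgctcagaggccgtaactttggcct
CDC25A: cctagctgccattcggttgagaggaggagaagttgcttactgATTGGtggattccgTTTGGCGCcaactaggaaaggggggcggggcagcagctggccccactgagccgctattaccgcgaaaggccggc
CLSPN: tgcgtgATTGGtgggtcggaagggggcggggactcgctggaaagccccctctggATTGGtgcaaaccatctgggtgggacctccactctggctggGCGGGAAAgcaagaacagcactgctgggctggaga
FANCD2: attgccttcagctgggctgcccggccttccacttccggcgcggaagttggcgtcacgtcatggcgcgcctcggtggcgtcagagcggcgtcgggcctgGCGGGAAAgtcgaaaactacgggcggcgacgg
UHRF1: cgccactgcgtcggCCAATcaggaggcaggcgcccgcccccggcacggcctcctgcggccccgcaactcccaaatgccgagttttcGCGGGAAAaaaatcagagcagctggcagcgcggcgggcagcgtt
XRCC2: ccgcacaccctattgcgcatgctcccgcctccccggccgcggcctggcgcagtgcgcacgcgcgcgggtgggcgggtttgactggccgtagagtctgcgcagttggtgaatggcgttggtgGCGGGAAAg

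A RefSeq window was found for 45 of the 51 genes, 68 windows of 300 bases in all, and FANCI, HUS1, PKMYT1, TONSL, WEE1 and WRN had none in the table. The E2F letters searched were TTTCCCGC, TTTGGCGC, TTTCGCGC and TTTGCCGC on both strands. They stood in 12 of the 68 member windows (17.6%), against 3.31% of all 35116 windows. By gene, 11 of 45 members held them (24.4%), against 6.14% of 12783 tested genes with a window. Among members, they were in 9 of 28 that fell, 1 of 12 that rose (HLTF) and 1 of 5 not called (XRCC2). The CHR letters, TTTGAA or TTCGAA on both strands, stood in 12 of the 68 member windows (17.6%), close to the 16.4% of all windows. By gene, they were in 10 of 45 members (22.2%), 15.7% of tested genes with a window and 19.5% of all genes with a window. Among members, they were in 6 of 28 that fell, 3 of 12 that rose and 1 of 5 not called. No motif searched contains the letters of another. CCAAT, on both strands, was in 30 of 45 members (66.7%) and 42.6% of tested genes with a window (18 of 28 that fell, 9 of 12 that rose and 3 of 5 not called). Whether the share of any motif differed between members that fell and those that rose was not tested. All of these counts are matches of letters, not measured binding.

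The kinases ATR, ATM and CHEK1 rose, while ATRIP and both activators of ATR fell. ATR, the apical kinase of stalled forks (chromosome 3, 142449007 to 142578733, GRCh38), had 35.1, 31.7 and 32.8 CPM in GNF5 libraries, against 23.8, 28.5 and 26.0 CPM in DMSO libraries. The lowest GNF5 library lay above the highest DMSO library, and the log2 fold change was 0.35 ± 0.058 (edgeR adjusted p = 6.41e-06). ATRIP, the partner that brings ATR to RPA (chromosome 3, 48446710 to 48467645), had 12.9, 12.9 and 12.3 CPM with GNF5 and 14.9, 14.6 and 14.8 CPM with DMSO, so ATRIP fell (-0.22 ± 0.067). Of its exon bases, 26.7% are shared with TREX1, and reads there were left out by the counting. The activators fell too. ETAA1 had 20.7, 20.8 and 19.5 CPM with GNF5 and 29.1, 27.5 and 27.0 CPM with DMSO (-0.45 ± 0.054), and TOPBP1 had a log2 fold change of -0.27 ± 0.036. No library of one group lay within the range of the other for either activator.

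ATM, the kinase of double-strand breaks, rose by 0.28 ± 0.040, with 95.6 to 101.9 CPM in GNF5 libraries and 79.5 to 86.4 CPM in DMSO libraries. CHEK1, the effector kinase below ATR, rose by 0.22 ± 0.039 (85.3 to 92.5 CPM with GNF5 and 75.5 to 78.0 CPM with DMSO). CHEK2, the effector below ATM, was not called at -0.08 ± 0.046, with 38.0 to 41.8 CPM in GNF5 libraries against 41.9 to 42.4 CPM in DMSO libraries (edgeR adjusted p = 0.152). It passed with upper-quartile factors (0.0491) and without GNF5 replicate 1 (0.0450), over a range of 0.0450 to 0.515 in the alternatives.

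The clamp that TOPBP1 docks on went both ways. RAD9A (chromosome 11, 67317871 to 67398410), its subunit that binds TOPBP1, had 41.1, 38.8 and 38.5 CPM with GNF5 and 30.0, 30.5 and 30.8 CPM with DMSO (0.38 ± 0.047). RAD17, which loads the clamp, had 55.4, 51.0 and 51.6 CPM with GNF5 and 41.1, 41.0 and 41.9 CPM with DMSO (0.35 ± 0.045). Both rose clear of the DMSO range. RAD1, another subunit, fell slightly (-0.11 ± 0.039, edgeR adjusted p = 0.0131, or 0.0729 without GNF5 replicate 3, over a range of 0.00276 to 0.0729), and HUS1, the remaining subunit, was not called (-0.06 ± 0.052).

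The fork mediators all fell. CLSPN, or claspin, which hands CHEK1 to ATR (chromosome 1, 35720218 to 35769978), had 52.8, 52.2 and 53.1 CPM in GNF5 libraries and 80.9, 80.6 and 82.5 CPM in DMSO libraries. The replicates of each group were close, and the log2 fold change was -0.63 ± 0.039 (edgeR adjusted p = 4.06e-14). TIMELESS, which travels with the fork, had 221.4, 218.1 and 220.0 CPM with GNF5 and 249.9, 250.3 and 241.7 CPM with DMSO (-0.17 ± 0.032). TIPIN, its partner, had 25.9, 27.0 and 26.2 CPM with GNF5 and 30.9, 30.1 and 29.1 CPM with DMSO (-0.19 ± 0.050), and 21.1% of its exon bases are shared with a pseudogene. The ratio of TIMELESS to TIPIN barely moved, by 0.02 on the log2 scale.

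In the switch that sets CDK1 activity, WEE1 rose and the other 4 genes fell. WEE1, the nuclear kinase that inhibits CDK1 (chromosome 11, 9573670 to 9593457), had 157.5, 150.2 and 151.2 CPM in GNF5 libraries and 125.0, 126.2 and 123.2 CPM in DMSO libraries (0.29 ± 0.034, edgeR adjusted p = 1.89e-08). PKMYT1, the membrane-bound kinase with the same role (chromosome 16, 2968024 to 2980479), had 77.3, 78.2 and 76.8 CPM with GNF5 and 107.8, 100.5 and 103.6 CPM with DMSO (-0.42 ± 0.038). Thus the kinases of this step moved in opposite directions, each clear of the other group's range.

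CDC25C, the phosphatase that activates CDK1 at mitotic entry (chromosome 5, 138285265 to 138338355), had 9.45, 8.62 and 9.09 CPM in GNF5 libraries, against 23.4, 22.0 and 21.6 CPM in DMSO libraries. It had the largest fall of the 51 genes, at -1.30 ± 0.068 (edgeR adjusted p = 7.17e-16), and its mean fell by 59.4%. Its GNF5 and DMSO libraries were far apart. CDC25A, which acts at G1/S and is destroyed on CHEK1 signalling (chromosome 3, 48157146 to 48188417), had 38.8, 37.6 and 40.4 CPM with GNF5 and 54.9, 52.2 and 53.7 CPM with DMSO (-0.46 ± 0.045). CDC25B (chromosome 20, 3786772 to 3806121), which starts CDK1 activation, had 201.9, 202.8 and 211.2 CPM with GNF5 and 268.4, 258.8 and 261.6 CPM with DMSO (-0.36 ± 0.033). Per kilobase of exon, CDC25B had the highest level of the 3 phosphatases in both groups (47.6 CPM per kb with GNF5 and 60.9 with DMSO), ahead of CDC25A (9.40 and 12.9) and CDC25C (2.71 and 6.69).

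**Figure D3:**
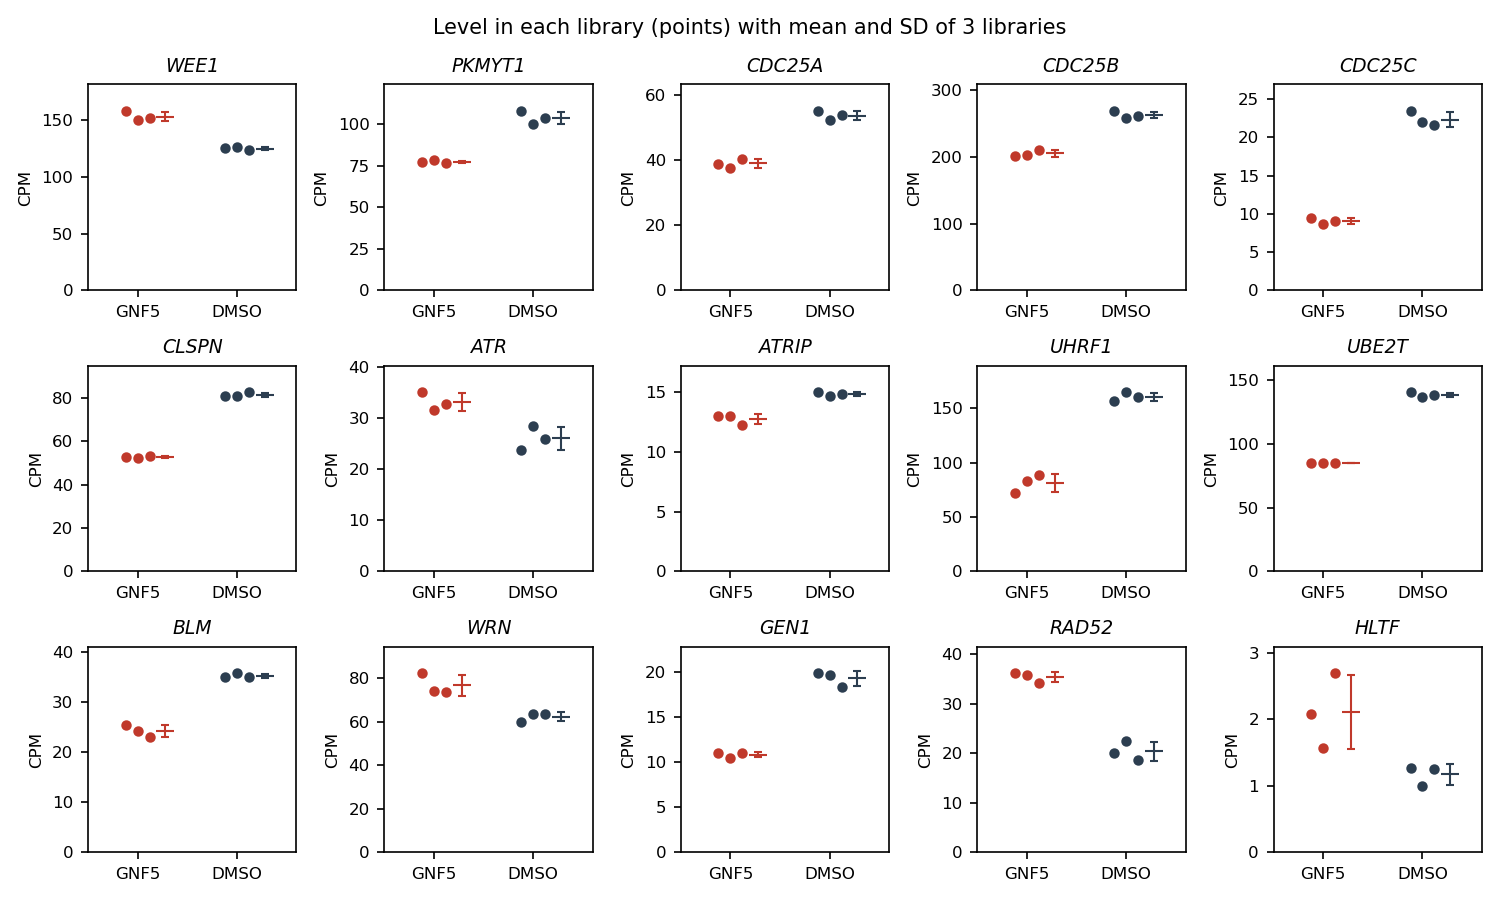
CPM in each library (vertical axes start at 0 and differ by gene) for 15 of the genes, GNF5 at the left and DMSO at the right, with the mean and SD of 3 libraries beside the points. In every panel the points of the groups are apart, with CDC25C near 9 CPM in GNF5 libraries and between 21.6 and 23.4 CPM in DMSO libraries, and HLTF shows the widest spread for its level.

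Of the 3 fork remodelling translocases, 2 rose and none fell. SMARCAL1, a translocase that reverses stalled forks (chromosome 2, 216412414 to 216483053), had 12.6, 11.8 and 12.4 CPM in GNF5 libraries and 8.41, 8.86 and 9.11 CPM in DMSO libraries, a rise of 0.48 ± 0.076 (edgeR adjusted p = 3.19e-06). HLTF, another such translocase and a ubiquitin ligase for PCNA (chromosome 3, 149030127 to 149086554), was low, with 122, 73 and 141 counts in GNF5 libraries and 72, 60 and 72 counts in DMSO libraries. These are 2.08, 1.57 and 2.69 CPM with GNF5 and 1.27, 0.992 and 1.25 CPM with DMSO. The groups did not overlap, but the GNF5 libraries were spread widely (0.86 ± 0.20, edgeR adjusted p = 0.000381). ZRANB3, the third translocase, had 10.9, 7.87 and 8.19 CPM with GNF5 and 8.75, 9.24 and 9.66 CPM with DMSO. The high value is GNF5 replicate 1, the groups overlapped, and ZRANB3 was not called (-0.03 ± 0.098).

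TONSL and MMS22L form a complex that recognises new chromatin behind the fork. TONSL had 66.9, 68.4 and 68.5 CPM in GNF5 libraries and 78.4, 78.5 and 75.0 CPM in DMSO libraries (-0.19 ± 0.039). MMS22L had 79.1, 74.0 and 75.1 CPM with GNF5 and 79.4, 85.0 and 79.9 CPM with DMSO, so the groups nearly touched (-0.10 ± 0.040, edgeR adjusted p = 0.0377). That call was lost without GNF5 replicate 2 (0.165), GNF5 replicate 3 (0.134) or DMSO replicate 2 (0.135), with the low-count filter dropped (0.0585) and with the replicate block, and its adjusted p spanned 0.00924 to 0.165 in the alternatives.

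All 4 genes of the step that attaches ubiquitin in the Fanconi pathway fell. UBE2T, the enzyme that supplies ubiquitin (chromosome 1, 202331657 to 202341980), had 85.1, 84.7 and 84.9 CPM in GNF5 libraries and 140.2, 136.7 and 137.9 CPM in DMSO libraries. Its replicates nearly coincided, and it fell by 0.70 on the log2 scale with a standard error of 0.035 (edgeR adjusted p = 2.09e-16). FANCL, the ligase, had 26.0, 26.1 and 26.4 CPM with GNF5 and 36.9, 34.2 and 35.2 CPM with DMSO (-0.44 ± 0.049). Both substrates fell. FANCI had 91.5, 93.0 and 92.5 CPM with GNF5 and 134.7, 139.0 and 132.8 CPM with DMSO (-0.55 ± 0.035), and FANCD2 had 32.7, 29.0 and 29.3 CPM with GNF5 and 44.4, 47.5 and 42.5 CPM with DMSO (-0.56 ± 0.053). In both genes every GNF5 library lay below every DMSO library, and the ratio of FANCI to FANCD2 differed by only 0.0094 on the log2 scale.

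The Fanconi core complex anchors FANCL to DNA. Of its 8 genes, with FANCL, given above, counted among them, 6 fell and 2 rose. FANCB, the X-linked scaffold, had 5.64, 4.83 and 4.62 CPM in GNF5 libraries and 7.63, 7.80 and 8.85 CPM in DMSO libraries (-0.68 ± 0.10). FANCA, FANCC, FANCM and FANCG fell less, with log2 fold changes of -0.31 ± 0.039, -0.29 ± 0.041, -0.33 ± 0.057 and -0.15 ± 0.040. FANCE, the subunit that contacts FANCD2 (chromosome 6, 35452338 to 35467102), rose, with 37.4, 33.0 and 34.1 CPM with GNF5 and 27.0, 27.2 and 26.8 CPM with DMSO (0.37 ± 0.052). FANCF, the adaptor next to it (chromosome 11, 22622533 to 22625823), had 82.8, 79.9 and 84.7 CPM with GNF5 and 70.1, 70.5 and 74.0 CPM with DMSO (0.21 ± 0.039). The core complex was thus not uniform, and these exceptions kept their call in all 12 alternatives.

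UHRF1, which senses crosslinks and also maintains DNA methylation (chromosome 19, 4903080 to 4962154), had 71.9, 83.3 and 88.1 CPM in GNF5 libraries and 156.8, 164.4 and 160.0 CPM in DMSO libraries. It had the largest fall of the Fanconi genes at -0.99 ± 0.056 (edgeR adjusted p = 2.45e-10), although its GNF5 libraries were more spread than its DMSO libraries. BRIP1, the helicase that partners BRCA1 (chromosome 17, 61679139 to 61863528), had 35.0, 38.5 and 36.6 CPM with GNF5 and 61.0, 66.3 and 61.5 CPM with DMSO (-0.78 ± 0.047). Neither gene had a GNF5 library within reach of the DMSO range.

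The BRCA1 and BRCA2 genes and their partners did not move together. BRCA1 (chromosome 17, 43044295 to 43170245) had 119.6, 116.5 and 115.4 CPM in GNF5 libraries and 117.5, 120.9 and 114.2 CPM in DMSO libraries. These ranges overlapped, and BRCA1 was not called (-0.0044 ± 0.036, edgeR adjusted p = 0.925). BARD1, its partner in the ubiquitin ligase, fell by 0.27 ± 0.069, with 12.9, 13.8 and 13.2 CPM with GNF5 and 14.8, 17.0 and 16.2 CPM with DMSO. BRCA2, which also protects stalled forks (chromosome 13, 32315086 to 32400268), had 20.4, 18.8 and 18.3 CPM with GNF5 and 25.2, 26.3 and 23.5 CPM with DMSO (-0.38 ± 0.059). PALB2, which joins BRCA2 to BRCA1, had 34.1, 31.3 and 32.9 CPM with GNF5 and 30.0, 30.8 and 29.6 CPM with DMSO (0.12 ± 0.049, edgeR adjusted p = 0.0320). The rise of PALB2 was small, and its call was lost in 8 of 12 alternatives, among them without GNF5 replicate 1 (0.116), GNF5 replicate 3 (0.0689), DMSO replicate 1 (0.0853) or DMSO replicate 3 (0.122), over a range of 0.0145 to 0.122.

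RAD52 had the largest rise of the 14 recombination members. This protein anneals single strands and backs up BRCA2 (chromosome 12, 911736 to 990053). It had 36.1, 35.8 and 34.2 CPM in GNF5 libraries and 20.0, 22.4 and 18.7 CPM in DMSO libraries, a gap far wider than either group's spread (0.79 ± 0.057, edgeR adjusted p = 1.14e-12), and 5.17% of its exon bases are shared with another gene model. RAD54L, a DNA-dependent motor protein of recombination, had 24.4, 23.8 and 23.2 CPM with GNF5 and 33.3, 30.7 and 32.3 CPM with DMSO (-0.43 ± 0.051). XRCC3, a recombination mediator, had 51.2, 52.4 and 47.0 CPM with GNF5 and 75.2, 70.6 and 73.4 CPM with DMSO (-0.54 ± 0.045). XRCC2, another such mediator, overlapped between groups at 52.3 to 59.2 CPM with GNF5 and 53.2 to 59.1 CPM with DMSO (-0.0058 ± 0.049).

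The RecQ helicases among the members, BLM and WRN, went in opposite directions. BLM, the Bloom syndrome helicase that dissolves double junctions (chromosome 15, 90717346 to 90816166), had 25.4, 24.1 and 22.9 CPM in GNF5 libraries and 35.0, 35.7 and 34.8 CPM in DMSO libraries (-0.54 ± 0.051). WRN, the Werner syndrome helicase, had 82.1, 74.0 and 73.8 CPM with GNF5 and 59.8, 63.3 and 63.6 CPM with DMSO (0.30 ± 0.044). The ratio of BLM to WRN was 0.310, 0.326 and 0.310 in GNF5 libraries, against 0.585, 0.563 and 0.548 in DMSO libraries.

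The nucleases that cut recombination junctions were also split. GEN1, a junction resolvase (chromosome 2, 17753858 to 17788946), had 11.0, 10.5 and 11.1 CPM in GNF5 libraries and 19.9, 19.7 and 18.4 CPM in DMSO libraries, with the groups far apart (-0.83 ± 0.067, edgeR adjusted p = 1.05e-11). SLX4, the scaffold for such nucleases, fell by 0.36 ± 0.057. MUS81, a nuclease that also cuts stalled forks, rose, with 68.8, 73.1 and 73.4 CPM with GNF5 and 61.4, 55.8 and 60.7 CPM with DMSO (0.27 ± 0.044). EME1, its partner, had 20.0, 16.9 and 19.9 CPM with GNF5 and 20.2, 21.1 and 20.0 CPM with DMSO, values that overlapped in range (-0.11 ± 0.064, not called).

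Within each library the log2 ratio of a pair was taken for 12 pairs, and in 9 the 3 GNF5 values lay on one side of the 3 DMSO values. Single genes behaved so in 47 of the 51 members and in 65.9% of all tested genes (33.1% with GNF5 above and 32.8% with GNF5 below). With 3 libraries a group the exact two-sided permutation test cannot go below 0.1, the value in each of those 9 pairs (0.133 after Benjamini-Hochberg adjustment over 12). The widest shift was CDC25C to WEE1, with ratios of 0.0600, 0.0574 and 0.0601 in GNF5 libraries and 0.187, 0.174 and 0.175 in DMSO libraries (-1.60 on the log2 scale). CDC25C to CDC25B shifted by -0.95, BLM to WRN by -0.84, PKMYT1 to WEE1 by -0.72, ATR to ATRIP by 0.57, BRCA2 to PALB2 by -0.51, EME1 to MUS81 by -0.39, UBE2T to FANCL by -0.27 and BRCA1 to BARD1 by 0.26. The ratios overlapped for MMS22L to TONSL (0.09), TIMELESS to TIPIN (0.02) and FANCI to FANCD2 (0.0094).

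**Figure D4:**
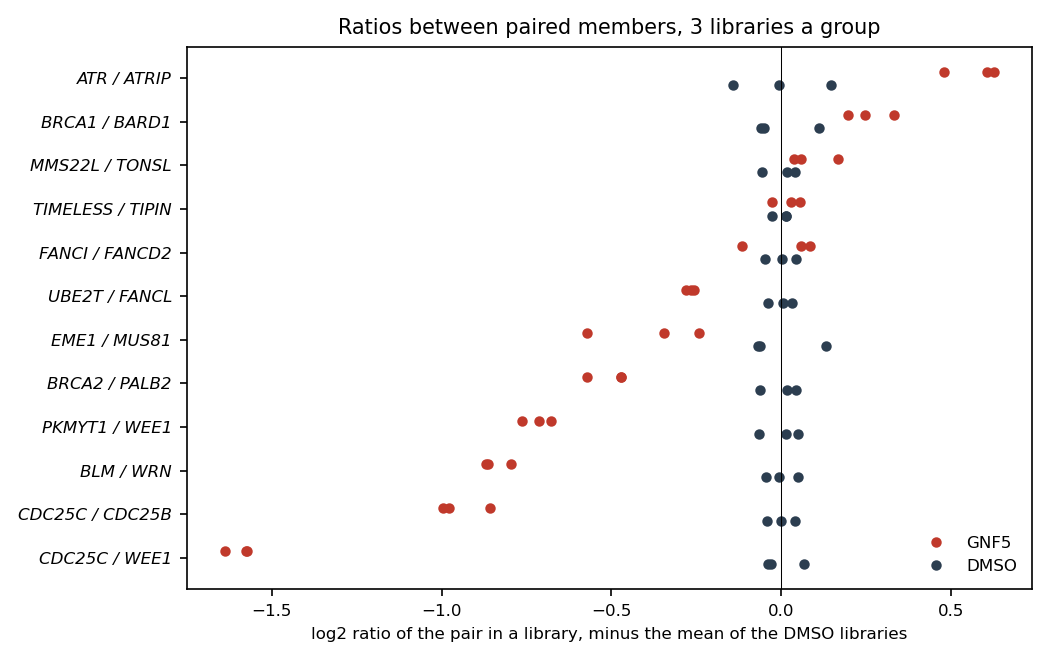
Log2 ratio of the CPM of each of 12 pairs in each library, less the mean of the DMSO libraries (horizontal axis), with GNF5 points in red above DMSO points in dark blue. CDC25C to WEE1 lies farthest to the left, near -1.60, and the points of TIMELESS to TIPIN, FANCI to FANCD2 and MMS22L to TONSL overlap.

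Levels differed widely between members. Per kilobase of exon, UBE2T (51.4 CPM per kb with GNF5 and 83.7 with DMSO), CDC25B and TIMELESS (37.6 and 42.3) were the highest, and HLTF (0.351 and 0.195), ZRANB3 (0.988 and 1.01) and ATR (1.22 and 0.958) were among the lowest. The exon length joins all annotated exons (27234 bases for ATR), which would lower this value where long exons are little used. The use of single exons was not measured. The change showed no strong relation to the mean level in CPM, the genomic span or the exon length. Its relation to the level per kilobase was not computed. Across the 51 genes, which share all libraries, Spearman's rho of the log2 fold change was -0.013 with the mean log2 CPM, 0.051 with the genomic span and -0.061 with the exon length. Members that fell spanned 6.11 to 327.7 kb (median 49.8 kb) and those that rose 3.29 to 146.3 kb (median 53.5 kb).

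**Figure D5:**
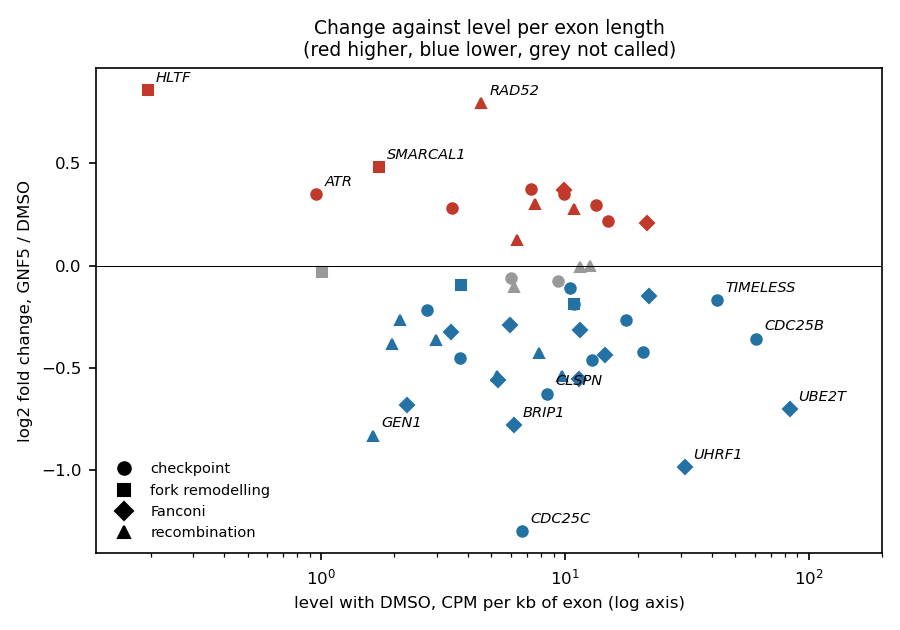
Log2 fold change, GNF5 over DMSO (vertical axis), against the DMSO level in CPM per kb of exon (horizontal log axis) for the 51 genes, with a marker shape for each subset. Genes that rose and genes that fell share much of the range, with HLTF, which rose, at the far left (0.195 CPM per kb). The highest levels belong to genes that fell, namely UBE2T at the far right (83.7), CDC25B (60.9), TIMELESS (42.3), UHRF1 (31.2) and FANCG (22.1). The highest gene that rose is FANCF (21.7), and the highest not called is BRCA1 (12.6).

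Other genes of the same pathways, 66 in all, had 37 lower and 10 higher (median log2 fold change -0.16), which is 56.1% and 15.2%, beside 30.7% and 31.0% of all tested genes. Calls in either direction came to 71.2% of them, between the 61.6% of all tested genes and the 78.1% of the well expressed ones. Among 11 further checkpoint genes 9 fell and 1 rose. RPA1 and RPA3, subunits of the protein that coats single-stranded DNA, fell by 0.61 ± 0.036 and 0.68 ± 0.048, CDK1 itself fell by 0.74 ± 0.041, and DBF4, the activator of the CDC7 kinase, fell by 0.56 ± 0.043. TP53BP1, which opposes end resection, rose by 0.14 ± 0.035. Of 17 further fork genes 7 fell and 2 rose, a called share (52.9%) below that of all tested genes. RECQL4, a replication helicase, fell by 0.54 ± 0.039, the resection nucleases DNA2 and EXO1 by 0.55 ± 0.049 and 0.45 ± 0.048, and SMARCAD1, a chromatin remodeller, by 0.27 ± 0.047. BOD1L1, which protects stalled forks, rose by 0.35 ± 0.044, and RAD50, of the break-binding complex with MRE11, by 0.45 ± 0.065, although 76.9% of the exon bases of RAD50 are shared with another gene model and its value is uncertain.

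Of 13 further Fanconi genes 8 fell and 2 rose. FAAP24, which binds FANCM, had the largest change (-0.87 ± 0.12), but it was low, at a mean of 2.51 CPM with GNF5 and 4.59 CPM with DMSO. RFWD3, a ubiquitin ligase for RPA, fell by 0.54 ± 0.043, CENPX, a histone-fold partner of FANCM, by 0.57 ± 0.050, and FAAP20, a core complex subunit, by 0.46 ± 0.051. FAN1, a crosslink nuclease, rose by 0.28 ± 0.049 and REV3L, the catalytic subunit of translesion polymerase zeta, by 0.15 ± 0.040. Of 25 further recombination genes 13 fell and 5 rose. RMI1, which works with BLM, fell by 0.56 ± 0.040, BRCC3, a deubiquitinase of the BRCA1-A complex, by 0.54 ± 0.046, FIGNL1, an ATPase of recombination, by 0.40 ± 0.047, and MCM8, a repair helicase with 33.3% of its exon bases in another gene model, by 0.54 ± 0.052. The recombination mediators RAD51D and RAD51B rose by 0.50 ± 0.051 and 0.59 ± 0.090, and ABRAXAS1, the scaffold of the BRCA1-A complex, and ZSWIM7, a further recombination mediator, were low and rose by 0.93 ± 0.12 and 0.73 ± 0.11.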

How the data were processed

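RNA from NCI-H69 cells (3 GNF5 and 3 DMSO libraries) was analysed from the deposited gene counts. Per the file headers, the authors counted fragments with featureCounts 1.6.1, reverse-stranded, over exons of Ensembl release 101 on GRCh38, and reads that map to several places or overlap several genes were left out by default. GRCh37 and the tools DESeq2, HTSeq, STAR and Trim Galore are listed, without roles, in the submitters' processing notes, so the alignment's build is unsettled. How RNA was selected before sequencing was not given in those sources. Exon lengths come from the deposited table. The labels give the GNF5 dose as 20 µM per sample but once in millimolar. The smallest level that 3 counts give was 0.0494 to 0.0650 CPM, which covers counting error only.

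All 6 libraries entered edgeR 4.0.16 (R 4.3.3, TMM, default filter, robust quasi-likelihood fit, Benjamini-Hochberg adjustment over 20734 genes). The fit was first run on simulated counts with the same dispersion for every gene and few changed genes. That setting is simpler than these data and does not show how the fit performs on them. Standard errors were back-calculated from the F statistic. Symbols came from a gene name table that held 60401 of 60671 IDs. Alternatives (12) were DESeq2 1.42.0, RLE or upper-quartile factors, no filter, a filter of 1 CPM in 3 libraries, a replicate block, and leaving out each library. Ratios used exact permutation tests (scipy 1.17.1). Per-library values were given for up to 4 called members per direction and subset, the CDK1 switch and the 12 pairs, and other pathway genes were named by lowest p, up to 4 per direction. Members, subsets, lists and pairs were chosen with earlier results of these data known.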

Additional observations from a re-analysis of the deposited data

How the results depend on the processing

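Of the 51 genes, 44 kept their direction and call in all 12 alternatives, and the other 7 were CHEK2, RAD1, ZRANB3, MMS22L, BRCA1, PALB2 and XRCC2. Members lower numbered 29 to 32 and higher 13 to 14 when a library was left out, and 30 to 32 and 13 to 14 in the other alternatives. The count of lower fork remodelling genes was 1 with no expression filter, 1 with the replicate block and 1 to 2 without a library. The count of higher G1/S genes was 0 to 1 without a library, the gene called being CDT1. ZRANB3, BRCA1 and XRCC2, all near 0, changed sign when a library was left out, with log2 fold changes of -0.20 to 0.057 for ZRANB3, -0.029 to 0.0089 for BRCA1 and -0.057 to 0.036 for XRCC2, as did the ratio of FANCI to FANCD2 (-0.028 to 0.072). The causes were not tested. RLE and upper-quartile factors leave ratios between genes of a library as they are by construction, and they moved the median of all genes by -0.0057 and -0.026.

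Same-numbered libraries showed little shared deviation from their group means, with r of -0.016 to 0.016. Such values cannot settle whether those libraries were handled in pairs. A fit with the replicate block called 6279 genes higher and 6196 lower, against 6426 and 6356, and among the members MMS22L (adjusted p = 0.0611) and PALB2 (0.0503) lost their call. HLTF, with the lowest counts of the 51 genes (60 to 141 per library), also had the largest standard error.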
